A study of Mus musculus with 2 samples.

Results

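The genes examined were Nr3c1, which encodes the glucocorticoid receptor, and 9 genes known to respond to it, namely Sgk1, Fkbp5, Tsc22d3, Per1, Zbtb16, Klf9, Pik3r1, Dusp1 and Hsd11b1. For these 10 of 21887 protein-coding genes, every unique open-chromatin peak was taken whose centre lay in the gene or within 100 kb of its mm10 span. This gave 49 of 22485 peaks, of which 28 of 14483 belonged to the list for CD137+ cells and 21 of 8002 to the list for PDGFRα+ cells. Both groups were C57BL/6 adipose progenitors that had been isolated by magnetic sorting (MACS), taken through an adipogenic cocktail and treated with 1 µM of the synthetic glucocorticoid dexamethasone. They were sorted for CD137, the protein of Tnfrsf9, or for PDGFRα (CD140 in the labels), a receptor of stromal progenitors, and SAT or VAT is named as the source without saying which depot gave which group. Open chromatin was read by ATAC-seq, in which a transposase cuts accessible DNA, with 1 library per group. Cells not given the drug were not analysed here, so no value measures the response to it, and no p-value can be given for a difference between the groups.

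The glucocorticoid receptor is a ligand-activated transcription factor that is held in the cytoplasm by heat shock chaperones. Once bound by hormone it enters the nucleus and binds palindromes of the hexamer TGTTCT, its reverse complement AGAACA standing first with 3 bases between, mostly in enhancers and often far from the genes it controls. In fat tissue glucocorticoids favour the differentiation of progenitors, and dexamethasone is a usual part of adipogenic cocktails.

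Each list holds peaks that the authors call unique to a group, with its position, the Ensembl ID of a gene and a class of place, but without height or read number. Depth is therefore unknown, a longer list may reflect it, and a site open in both groups may appear in neither list. The labels describe the cells as adipose, whereas their extraction text speaks of embryonic cells. Of 21 marker genes, 5 had a CD137 peak and 5 a PDGFRα peak in or within 5 kb, against 21.3% and 16.5% of all protein-coding genes. The CD137 peaks were at the adipocyte genes Pparg and Fabp4 and the stromal progenitor genes Dpp4 and Cd34. Another was at Zp3, a zona pellucida gene that was listed with the early embryo markers. The PDGFRα peaks were at Plin1 of adipocytes, Ly6a of stromal progenitors, Kdr of endothelium, Wt1 of mesothelium and Tnfrsf9. No listed immune marker had a peak of either list. Nor had the adipocyte gene Adipoq, the stromal gene Pdgfra or the endothelial genes Pecam1 and Cdh5. The mesothelial genes Msln and Upk3b and the early embryo genes Pou5f1 and Nanog also had none. Each of these cell types thus had listed markers without a peak, and no marker can be ranked by level from such lists.

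The set of RefSeq starts used here held 17 annotated transcription starts for 8 of the 10 genes. It held none for Nr3c1 and Zbtb16, whose starts were therefore not examined. Of the 17 starts, 5 lay inside a CD137 peak and none inside a PDGFRα peak. These 5 were 4 of the 6 Sgk1 starts and the first Tsc22d3 start, under 3 separate peaks. Over all genes 2.44% of 32851 starts lay inside a CD137 peak and 1.62% inside a PDGFRα peak. The windows of those 5 starts are shown because they are the ones among the 17 that a unique peak covered. Each runs from 250 bases before to 50 bases after the start on the gene's own strand (RefSeq, GRCm38.p6, which is mm10). Starts are numbered from the gene's 5′ end, and capitals mark TGTTCT or AGAACA.
Sgk1 start 1, chr10:21881934-21882233, + strand: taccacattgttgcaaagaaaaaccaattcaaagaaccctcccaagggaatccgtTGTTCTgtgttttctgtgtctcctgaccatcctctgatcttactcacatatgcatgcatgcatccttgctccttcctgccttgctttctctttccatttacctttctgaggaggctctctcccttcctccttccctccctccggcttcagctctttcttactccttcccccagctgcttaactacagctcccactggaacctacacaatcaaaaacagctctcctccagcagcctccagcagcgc
Sgk1 start 4, chr10:21991973-21992272, + strand: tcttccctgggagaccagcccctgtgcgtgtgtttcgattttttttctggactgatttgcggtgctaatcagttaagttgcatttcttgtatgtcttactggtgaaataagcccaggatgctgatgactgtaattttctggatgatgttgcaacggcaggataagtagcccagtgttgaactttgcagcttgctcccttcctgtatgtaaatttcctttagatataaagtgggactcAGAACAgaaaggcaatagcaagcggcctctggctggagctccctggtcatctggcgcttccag
Sgk1 start 5, chr10:21993640-21993939, + strand: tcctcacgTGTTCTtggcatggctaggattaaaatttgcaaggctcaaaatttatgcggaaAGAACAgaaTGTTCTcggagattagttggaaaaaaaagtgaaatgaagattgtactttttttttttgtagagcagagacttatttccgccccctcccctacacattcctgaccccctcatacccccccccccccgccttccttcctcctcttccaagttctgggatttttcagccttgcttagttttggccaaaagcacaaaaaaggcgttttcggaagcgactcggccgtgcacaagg
Sgk1 start 6, chr10:21994416-21994715, + strand: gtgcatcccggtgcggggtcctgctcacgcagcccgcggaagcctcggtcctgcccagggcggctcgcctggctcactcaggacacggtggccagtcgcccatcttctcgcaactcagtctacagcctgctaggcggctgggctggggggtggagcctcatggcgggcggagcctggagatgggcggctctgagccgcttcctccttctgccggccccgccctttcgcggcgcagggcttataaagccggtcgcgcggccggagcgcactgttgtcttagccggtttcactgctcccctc
Tsc22d3 start 1, chrX:140600473-140600772, - strand: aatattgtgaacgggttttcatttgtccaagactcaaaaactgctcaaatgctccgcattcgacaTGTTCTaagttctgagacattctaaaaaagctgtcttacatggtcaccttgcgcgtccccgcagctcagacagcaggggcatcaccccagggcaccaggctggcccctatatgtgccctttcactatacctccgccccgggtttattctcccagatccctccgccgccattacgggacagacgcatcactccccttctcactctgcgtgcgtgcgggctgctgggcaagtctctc

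The window of Sgk1 start 5 holds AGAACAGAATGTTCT, an exact match to the receptor's palindrome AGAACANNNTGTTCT. It lies at chr10:21993701-21993715, 189 bases before start 5 and 965 bases before start 6. The exact palindrome was present in 3 of all 32851 windows (0.00913%), the others being at Acnat2 and Gm35041, whose starts lay in no unique peak. With 1 mismatch allowed it was present in 54 windows (0.164%), and Sgk1 start 5 remained the only one among the 17 windows of the member genes. The hexamer alone was common. It was found in 4 of the 17 member windows (23.5%), against 19.0% of all windows, at Sgk1 starts 1, 4 and 5 and at Tsc22d3 start 1. These 4 windows were among the 5 shown above, and Sgk1 start 6 lacked the hexamer. Over all genes the hexamer was present in 16.1% of the 801 windows whose start lay in a CD137 peak and 17.6% of the 533 whose start lay in a PDGFRα peak, so neither list held it more often than windows at large. A match of letters does not show binding, and the sequence of the peaks outside these windows was not used here.

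Sgk1, a glucocorticoid-induced serine/threonine kinase that acts on ion channels and cell survival, had the most peaks of the 10 genes, with 7 CD137 and 2 PDGFRα peaks. Only 2.06% of protein-coding genes had 9 or more peaks within 100 kb. Among the 3463 genes whose span was 0.5 to 2 times the 118 kb of Sgk1, 4.82% had as many peaks and 2.25% had 7 or more from the CD137 list. For all 9 peaks Sgk1 was the nearest protein-coding gene.

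The widest of them was a CD137 peak of 7102 bp at chr10:21990919-21998021, classed exon, rank 3 of 14483 by width in its list. It covers Sgk1 starts 4, 5 and 6, which lie within 2443 bp of each other, and the palindrome stands 762 bp from the peak's centre. A second CD137 peak of 2294 bp (chr10:21999649-22001943, down5k) began 1628 bp further on, its centre 0.893 kb past the end of the gene. Another, of 1054 bp at chr10:21881752-21882806 (up5k), covered start 1 and also a start of the gene Gm46215. Start 6 is 112 kb away from start 1. Between them a CD137 peak of 2473 bp lay in an intron at chr10:21935890-21938363, 41.5 kb from the nearest start. The intronic PDGFRα peak of 1201 bp at chr10:21986333-21987534 had its centre 0.83 kb after start 3 and ended 3.38 kb short of the 7102 bp peak.

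The remaining Sgk1 peaks were intergenic and lay before the gene. CD137 peaks of 1136, 1454 and 825 bp had their centres 32.7, 42.7 and 98.3 kb from the span, the first 2 inside the noncoding gene Platr6. The other PDGFRα peak, of 1250 bp, was 96.3 kb away, and 1031 bp separated it from the farthest CD137 peak. The CD137 peaks thus covered both ends of the gene and its main cluster of starts, whereas the PDGFRα peaks lay over no start.

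**Figure D1:**
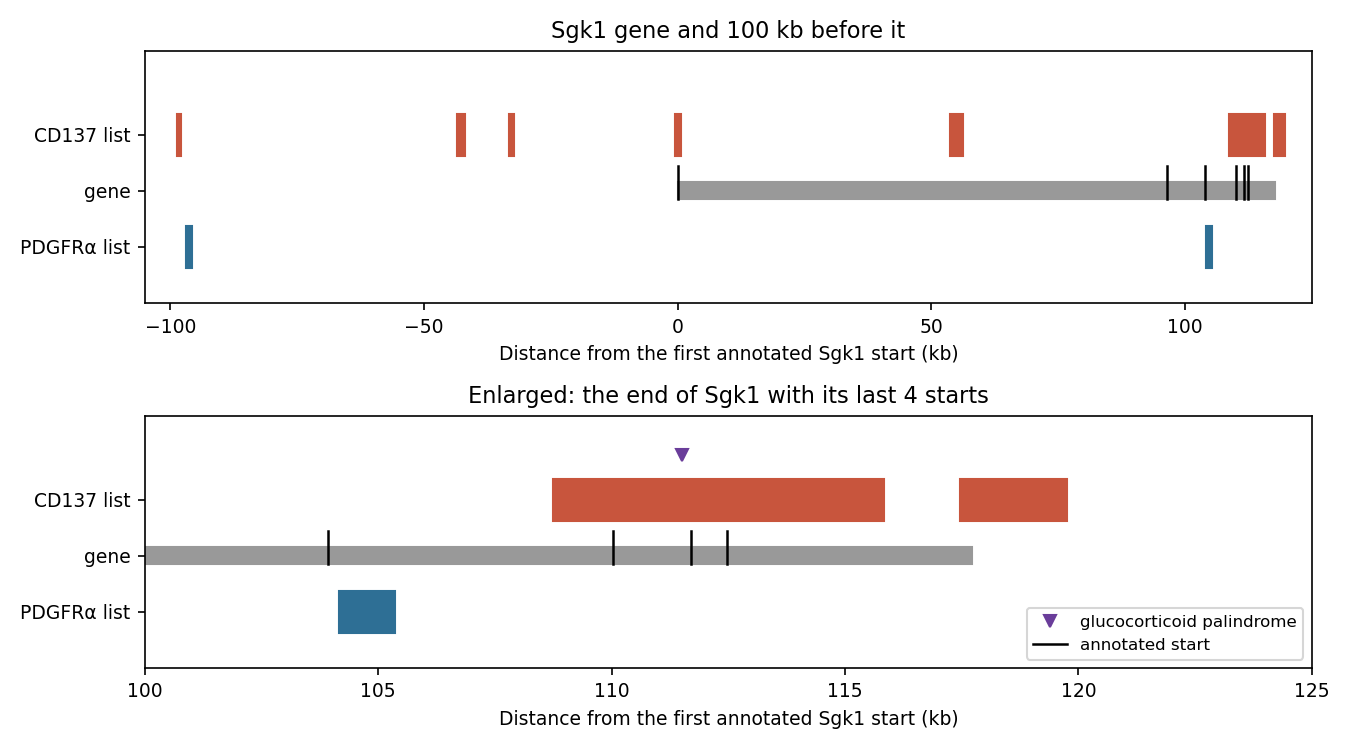
Unique peaks at Sgk1, drawn to scale by distance in kb from the first annotated start, with CD137 peaks above the grey gene span, PDGFRα peaks below it, annotated starts as black lines and, in the enlarged lower panel, the palindrome as a triangle. The 7102 bp CD137 peak spans the last 3 starts, and the nearer PDGFRα peak lies 3.38 kb before it.

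Tsc22d3, which encodes the glucocorticoid-induced leucine zipper (GILZ), an inhibitor of inflammatory transcription factors, had 1 CD137 and 3 PDGFRα peaks. The CD137 peak was narrow, 727 bp at chrX:140600224-140600951, narrower than nearly all of its list (rank 14330 of 14483), and it covered start 1 with the window printed above. Only 63 bp separated it from an intronic PDGFRα peak of 1062 bp at chrX:140599099-140600161, whose centre was 0.892 kb after the same start. The other PDGFRα peaks were intergenic, 1073 bp wide at 35.9 kb before the gene and 1146 bp wide at 10.2 kb after it. Starts 2 and 3, which lie 52.0 and 57.9 kb downstream of start 1, had no unique peak closer than 12.8 kb. The 5′ end of Tsc22d3 therefore held adjoining peaks of opposite lists.

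That adjacency occurred at 3 of the 10 genes. At Fkbp5 96 bp and at Pik3r1 232 bp separated a CD137 peak from a PDGFRα peak. In total 3 of 28 CD137 peaks (10.7%, exact interval 2.27 to 28.2%) and 3 of 21 PDGFRα peaks (14.3%, 3.05 to 36.3%) lay within 500 bp of the opposite list. These are the same 3 pairs counted from either side. Of the whole lists the shares were 0.787% and 1.42%, or 114 peaks each. The windows of the 10 genes also held more peaks of both lists per Mb than those of all genes.

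Fkbp5, a chaperone that lowers the hormone affinity of the receptor and is itself induced by it, had 2 CD137 and 3 PDGFRα peaks. The CD137 peaks were 1646 bp wide in an intron (chr17:28407174-28408820), 78.2 kb after the single annotated start, and 1183 bp wide in an exon (chr17:28446123-28447306), 39.4 kb after it. The PDGFRα peak adjoining that exonic peak was 1403 bp wide and intronic (chr17:28447402-28448805), 38.0 kb after the start. A PDGFRα peak of 2391 bp at chr17:28521831-28524222, in the top 2.55% of its list by width, lay 36.9 kb before the RefSeq start but carried the same Ensembl ID as the intronic Fkbp5 peaks. It covers the start of the noncoding gene E230001N04Rik. The last PDGFRα peak, of 867 bp, was 67.1 kb before Fkbp5 and 0.662 kb from Clpsl2. Inside the gene both lists were represented, and before it only PDGFRα peaks were found.

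Pik3r1, the regulatory subunit of phosphatidylinositol 3-kinase in insulin signalling, had 4 CD137 and 3 PDGFRα peaks, all nearest to it among coding genes. Its introns held 3 CD137 peaks of 1615, 1641 and 3439 bp, the last at chr13:101727596-101731035 and in the top 0.525% of its list by width. They lay 3.88, 26.9 and 36.7 kb before start 2, which is 75.6 kb downstream of start 1. An intronic PDGFRα peak of 1371 bp (chr13:101717063-101718434) adjoined the 1641 bp peak. Beyond the 3′ end, intergenic PDGFRα peaks of 1103 and 1082 bp were 22.8 and 56.2 kb away, and a CD137 peak of 1058 bp was 67.8 kb away. The CD137 peaks were thus mostly intronic, and neither list covered a Pik3r1 start.

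**Figure D2:**
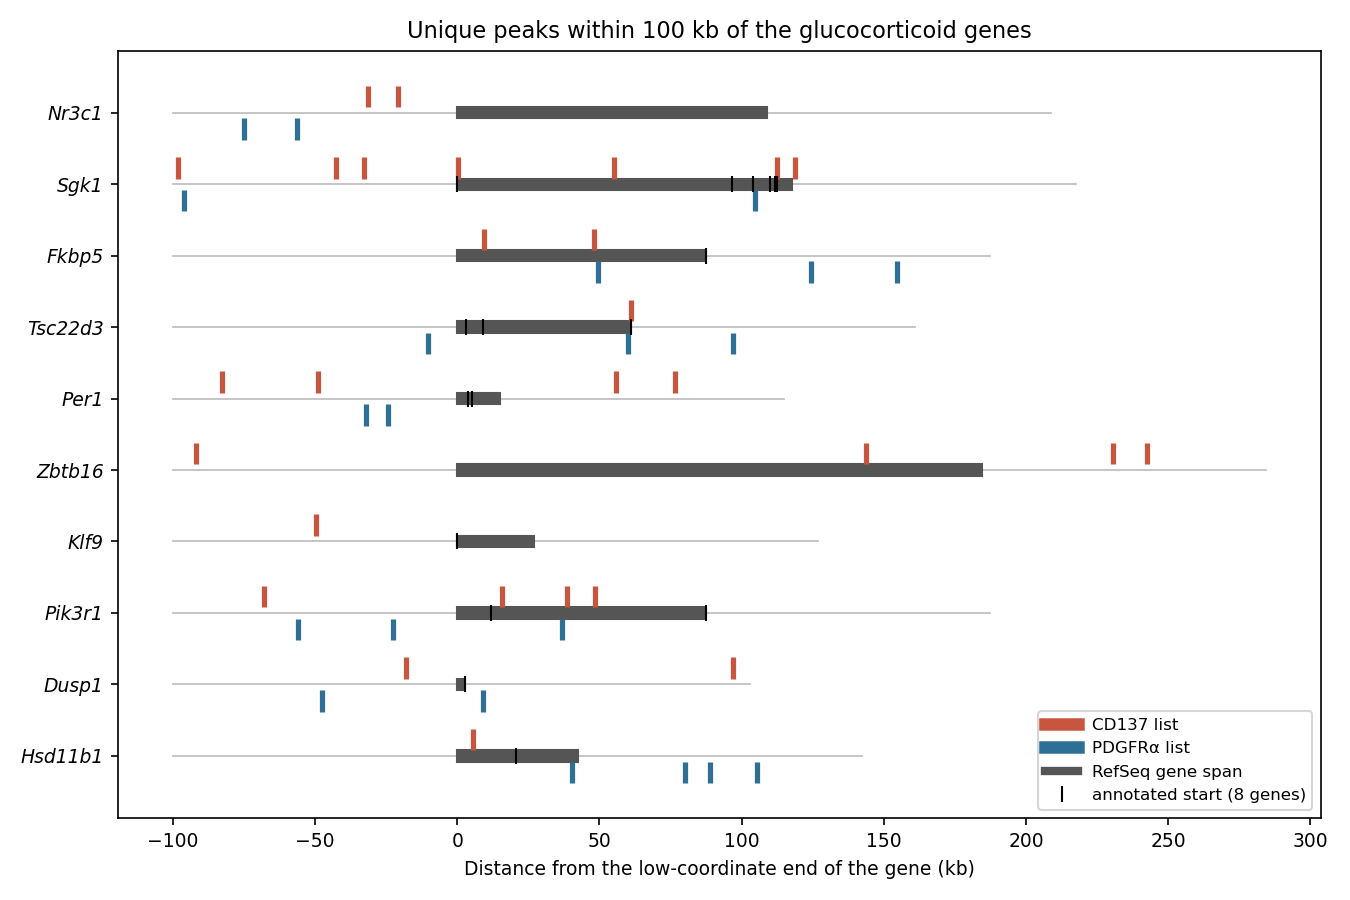
Position of every unique peak within 100 kb of the 10 genes, by distance in kb from the low-coordinate end of each gene. CD137 peaks are ticks of a fixed width above the line and PDGFRα peaks are such ticks below it. Gene spans are grey, and annotated starts are black marks for the 8 genes with starts in the set used. Of the 49 peaks 15 lie inside a gene, with Nr3c1, Per1, Klf9 and Dusp1 free of peaks within 5 kb.

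Hsd11b1, the enzyme that regenerates active glucocorticoid from its inactive form inside adipose cells, had 1 CD137 and 4 PDGFRα peaks. The CD137 peak of 1267 bp (chr1:193226495-193227762) lay in the gene, 15.2 kb after its annotated start. A PDGFRα peak of 2035 bp (chr1:193261055-193263090) also lay in the RefSeq span, 19.7 kb before that start. Both were classed down5k, under different Ensembl IDs. The other PDGFRα peaks, of 1022, 1202 and 1459 bp, were 37.6, 46.4 and 62.9 kb before the gene, inside Lamb3, the laminin beta 3 chain gene, and the nearest of them covered a Lamb3 start. Among 6762 genes of 0.5 to 2 times the span of Hsd11b1, 3.89% had 4 or more PDGFRα peaks and 71.4% had at least 1 CD137 peak.

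Zbtb16, the zinc finger repressor PLZF, had 4 CD137 peaks and no PDGFRα peak. The intronic peak was 1501 bp wide (chr9:48794743-48796244), and the nearest PDGFRα peak to it was 577 kb away. The others were 1021 bp inside Nnmt at 91.7 kb, 1246 bp intergenic at 46.2 kb and 974 bp at 58.1 kb, the last near the serotonin receptor gene Htr3a. No PDGFRα peak came closer than 341 kb to any of the 4 CD137 peaks. Among 2266 genes of similar span, 29.9% had 4 or more CD137 peaks. Klf9, a Krüppel-like transcription factor induced by glucocorticoids, also had CD137 peaks only, namely an intergenic peak of 925 bp that lay 49.6 kb before the gene. Among 7769 genes of similar span to Klf9, 68.7% had at least 1 CD137 peak. Zbtb16 and Klf9 were the 2 genes of the 10 without a PDGFRα peak, where 23.4% of all protein-coding genes had CD137 peaks only.

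Nr3c1 itself (chr18:39410545-39519421) had no unique peak in its 109 kb span. Within 100 kb it had 2 CD137 and 2 PDGFRα peaks, all on the low-coordinate side and all nearer to Arhgap26, a GTPase-activating protein gene. The CD137 peaks were 1022 bp wide at 21.0 kb and 2296 bp wide at 31.4 kb, the wider one in the top 2.67% of its list. The PDGFRα peaks were 1274 bp wide at 56.4 kb and 883 bp wide at 74.9 kb, both in Arhgap26 introns. The 2 lists thus did not mix along this flank, the CD137 peaks lying nearer to the receptor gene.

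Per1, a repressor of the circadian clock, and Dusp1, a phosphatase that switches off MAP kinases, are short genes that had peaks only at a distance. Per1 had 4 CD137 and 2 PDGFRα peaks, none nearer than 24.3 kb and none with Per1 as its nearest gene. The PDGFRα peaks were 1799 bp wide at 24.3 kb and 2912 bp wide at 32.0 kb before the gene. The first lay at Tmem107, whose start it covered, and the second near Borcs6, with its centre in the gene n-TSgct3. The CD137 peaks lay at 49.1 kb in Aurkb and 82.8 kb near Ctc1 on one side, and at 40.9 kb near Aloxe3 and 61.7 kb near Alox12b on the other, with widths of 1776, 1403, 1011 and 1364 bp. Dusp1 had 2 and 2. Its nearest was a PDGFRα peak of 2051 bp (chr17:26513712-26515763), intergenic, 6.27 kb before the start, in the top 4.95% of its list by width. A CD137 peak of 1460 bp was 18.2 kb after the gene. The outer peaks were a PDGFRα peak of 1462 bp at 47.6 kb and a CD137 peak of 1802 bp in Ergic1 at 94.2 kb. Around these 2 genes the PDGFRα peak was the nearer one.

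**Figure D3:**
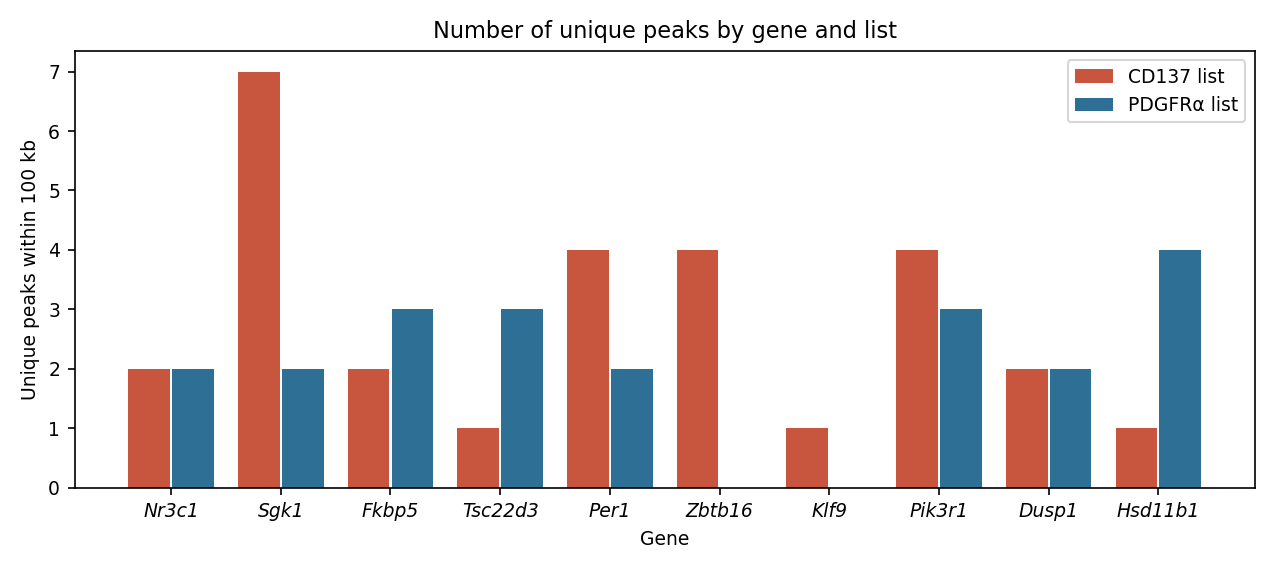
Number of unique peaks within 100 kb of each gene, CD137 list at left and PDGFRα list at right. Sgk1 has 7 and 2, Hsd11b1 has 1 and 4, and Zbtb16 and Klf9 have 4 and 1 CD137 peaks with no PDGFRα peak.

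Of the 10 genes, all had a CD137 peak and 8 had a PDGFRα peak within 100 kb, against 66.8% and 56.0% of all protein-coding genes. Peaks of both lists were found at 8 genes, against 43.4% of all genes, and a peak of either list at all 10, against 79.4%. CD137 peaks outnumbered PDGFRα peaks at 5 genes (43.0% of all genes), PDGFRα peaks outnumbered CD137 peaks at Fkbp5, Tsc22d3 and Hsd11b1 (23.3% of all genes), and the counts were equal at Nr3c1 and Dusp1. These shares of all genes include genes without any peak. In or within 5 kb of the gene, 6 of the 10 had a peak, against 30.2% of all genes. The genes were longer than most, with a median span of 74.2 kb against 17.2 kb, and a longer gene has a larger window. Per Mb of window, there were 10.2 CD137 and 7.68 PDGFRα peaks at the 10 genes, against 6.05 and 3.66 in the windows of all protein-coding genes.

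The CD137 share of the 49 peaks was 57.1% (exact 95% binomial interval 42.2 to 71.2%), and that of all 18544 peaks within 100 kb of a protein-coding gene was 62.3%, inside the interval. The intervals cover counting error only and neither depth nor variation between animals. The share was 52.5% without Sgk1. Neither list was therefore over-represented at the group as a whole beyond that interval, although single genes had peaks mostly of 1 list.

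Peaks of 2 kb or more made up 5 of the 28 CD137 peaks (17.9%, exact interval 6.06 to 36.9%), against 4.94% of that list. Among the PDGFRα peaks they were 4 of 21 (19.0%, 5.45 to 41.9%), an interval that holds the 5.52% of the whole list. Sgk1 gave 3 of the wide CD137 peaks. Without it 2 of 21 (9.52%, 1.17 to 30.4%) remained, at Pik3r1 and Nr3c1, and the interval then holds the share of the CD137 list. The wide PDGFRα peaks were at Per1, Fkbp5, Dusp1 and Hsd11b1. No gene had wide peaks of both lists. The medians differed less, at 1383.5 bp in the CD137 peaks and 1250 bp in the PDGFRα peaks of these genes, against 1221 and 1237 bp in the whole lists. Among intergenic peaks alone the order turned, with medians of 1097 bp in 8 CD137 and 1146 bp in 7 PDGFRα peaks.

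**Figure D4:**
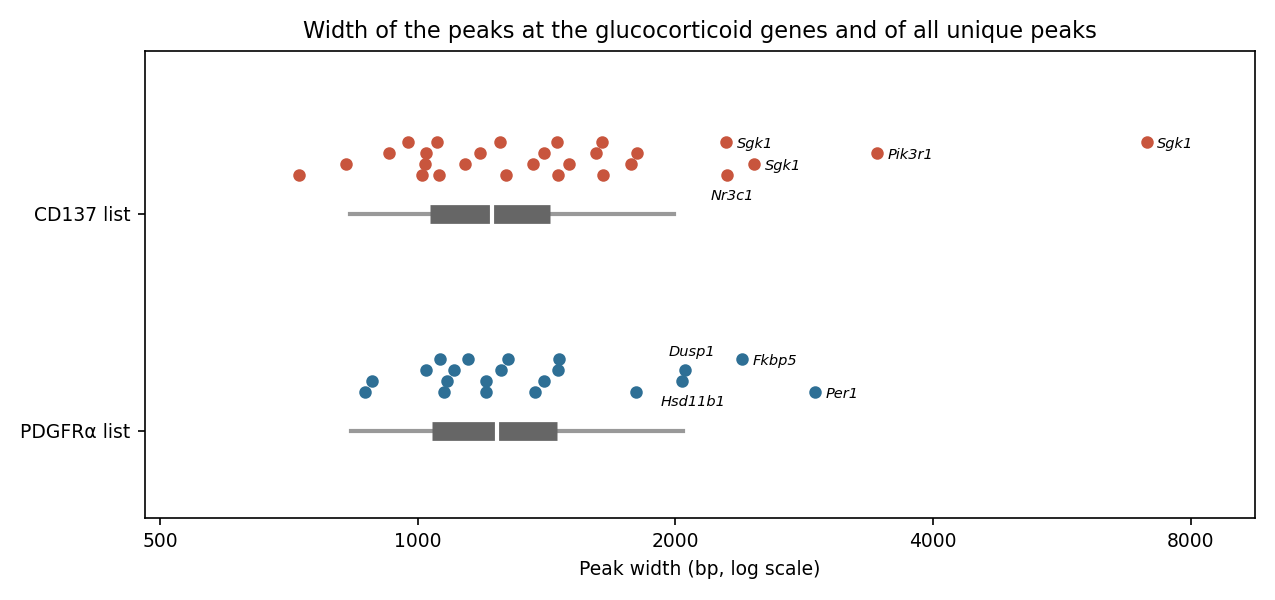
Width in bp, on a log axis, of the 28 CD137 and 21 PDGFRα peaks at the 10 genes (points, with a vertical offset for legibility) above the distribution of each whole list (thick bar, interquartile range with the median as a gap; thin line, 5th to 95th percentile). Points at 2 kb or more carry the gene name, and the widest is the 7102 bp CD137 peak at Sgk1.

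Of the 28 CD137 peaks, 10 lay inside the gene, 2 more within 5 kb, 9 at 5 to 50 kb and 7 beyond 50 kb. Of the 21 PDGFRα peaks, 5 lay inside, 10 at 5 to 50 kb and 6 beyond 50 kb. The median distance to the span was 26.2 kb in the CD137 and 35.9 kb in the PDGFRα peaks. Measured to the nearest annotated start, at the 8 genes with one in the set used, the order turned. The median was then 40.5 kb in 22 CD137 and 35.9 kb in 19 PDGFRα peaks, so neither list lay nearer on both measures. For 28 of the 49 peaks the member gene was the nearest protein-coding gene, 18 CD137 and 10 PDGFRα peaks, and 21 peaks lay nearer to another one. By deposited class, the CD137 peaks comprised 8 intergenic peaks (28.6%, against 45.3% of the whole list), 7 intron peaks (25%, against 31.7%), 2 exon peaks (7.14%, against 7.17%), 4 up5k peaks (14.3%, against 8.64%) and 7 down5k peaks (25%, against 7.22%). The PDGFRα peaks comprised 7 intergenic (33.3%, against 38.7%), 8 intron (38.1%, against 33.6%), 1 exon (4.76%, against 9.12%), 2 up5k (9.52%, against 11.1%) and 3 down5k peaks (14.3%, against 7.57%). Of these 10 shares, that of CD137 down5k peaks was the one whose exact interval (10.7 to 44.9%) left out the share of the whole list. Of the whole lists, 11552 of 14483 CD137 and 6992 of 8002 PDGFRα peaks lay within 100 kb of a protein-coding gene. All member peaks did so by rule, so the whole lists are not a like background for the classes, above all for intergenic peaks.

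These 2 classes did not follow the direction of transcription. The first Tsc22d3 start, at the high-coordinate end of a minus-strand gene, lies in a peak classed down5k. Among peaks of both lists outside genes with 1 coding gene and no other gene within 10 kb, up5k peaks lay on the low-coordinate side in 95.2% of 147 cases at minus-strand genes and 94.8% of 97 at plus-strand genes. Down5k peaks lay on the high-coordinate side in 97.9% of 95 cases and 100% of 136. For a minus-strand gene, up5k therefore marks the 3′ side. The positions above were taken from the RefSeq strand instead, except at Nr3c1 and Zbtb16, for which no strand was available.

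The other genes of the pathway were taken from a list of 47 in 5 roles. All 47 had a unique peak within 100 kb (79.4% of all genes did). In or within 5 kb, 18 had one (38.3%, against 30.2%). Their median span was 15.7 kb, against 17.2 kb for all genes, but Nr3c2 spanned 347 kb and Ncoa2 235 kb. These 47 were not compared with genes of similar span. CD137 peaks were the more numerous at 29 genes (43.0% of all genes), PDGFRα peaks at 10 (23.3%), and 8 had equal numbers. The shares of all genes include genes without any peak, so they run lower than shares among genes with a peak would. Counting a peak once where genes share it, there were 98 CD137 and 58 PDGFRα peaks, a CD137 share of 62.8% (exact interval 54.7 to 70.4%). This was close to the 62.3% of all peaks within 100 kb of a protein-coding gene.

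Among hormone and receptor genes, Hsd11b2, which inactivates glucocorticoid, had 1 CD137 and 3 PDGFRα peaks, and H6pd, which supplies NADPH to the Hsd11b1 enzyme, had 3 and 1. Nr3c2, the mineralocorticoid receptor, had 3 and 0, of which 2 were in the gene or within 5 kb. The receptor chaperones carried 14 CD137 and 7 PDGFRα peaks at 7 genes, with 3 and 0 at Hsp90aa1, 4 and 0 at Ppid, 2 and 3 at Fkbp4 and 2 and 1 at Hspa8, none of them within 5 kb. The coregulators carried 26 and 14 at 9 genes. The median was 3 peaks per gene in both roles, while coregulator genes spanned 41.2 to 235 kb and chaperone genes 3.93 to 19.3 kb. The coactivator gene Ncoa3 had 7 and 4, Ncoa1 had 4 and 5 and Ncoa2 had 4 and 1, while the corepressor gene Ncor1 had 1 and 2. Crebbp, Nrip1 and Med1 had 2 and 0, 3 and 0, and 3 and 1.

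Summed gene by gene, the 28 other response genes carried 53 CD137 and 34 PDGFRα peaks, a shared peak being counted at each gene. Mt1 and Mt2, neighbouring metallothionein genes, had 2 and 1 each, so peaks they share enter these sums more than once. CD137 peaks alone were found at 7 of the 28 genes, PDGFRα peaks alone at 3 and both at 18. Over all genes, including those without any peak, these shares were 23.4%, 12.6% and 43.4%. Among the genes with CD137 peaks alone were Bcl6, Per2, Pdk4, which restrains glucose oxidation, and Gadd45g, with 2 CD137 peaks each. Cited2, a transcriptional coregulator, had 0 and 2. Cebpb, an early adipogenic transcription factor, had 1 and 3, Lpin1, a phosphatidate phosphatase of fat synthesis, had 2 and 3, and Nfil3 had 1 and 2. Errfi1, a brake on EGF receptor signalling, had 4 and 3, Nfkbia, the inhibitor of NF-κB, had 4 and 1, Foxo3, Irs2 and Pck1 had 3 and 2 each, and Ddit4, Cdkn1a and Rgs2 had 3 and 1 each. Fam107a and Glul had 2 and 2 each, and Lcn2 had 2 and 1. Peaks of both lists were thus spread over every role except that of Nr3c2.

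**Figure D5:**
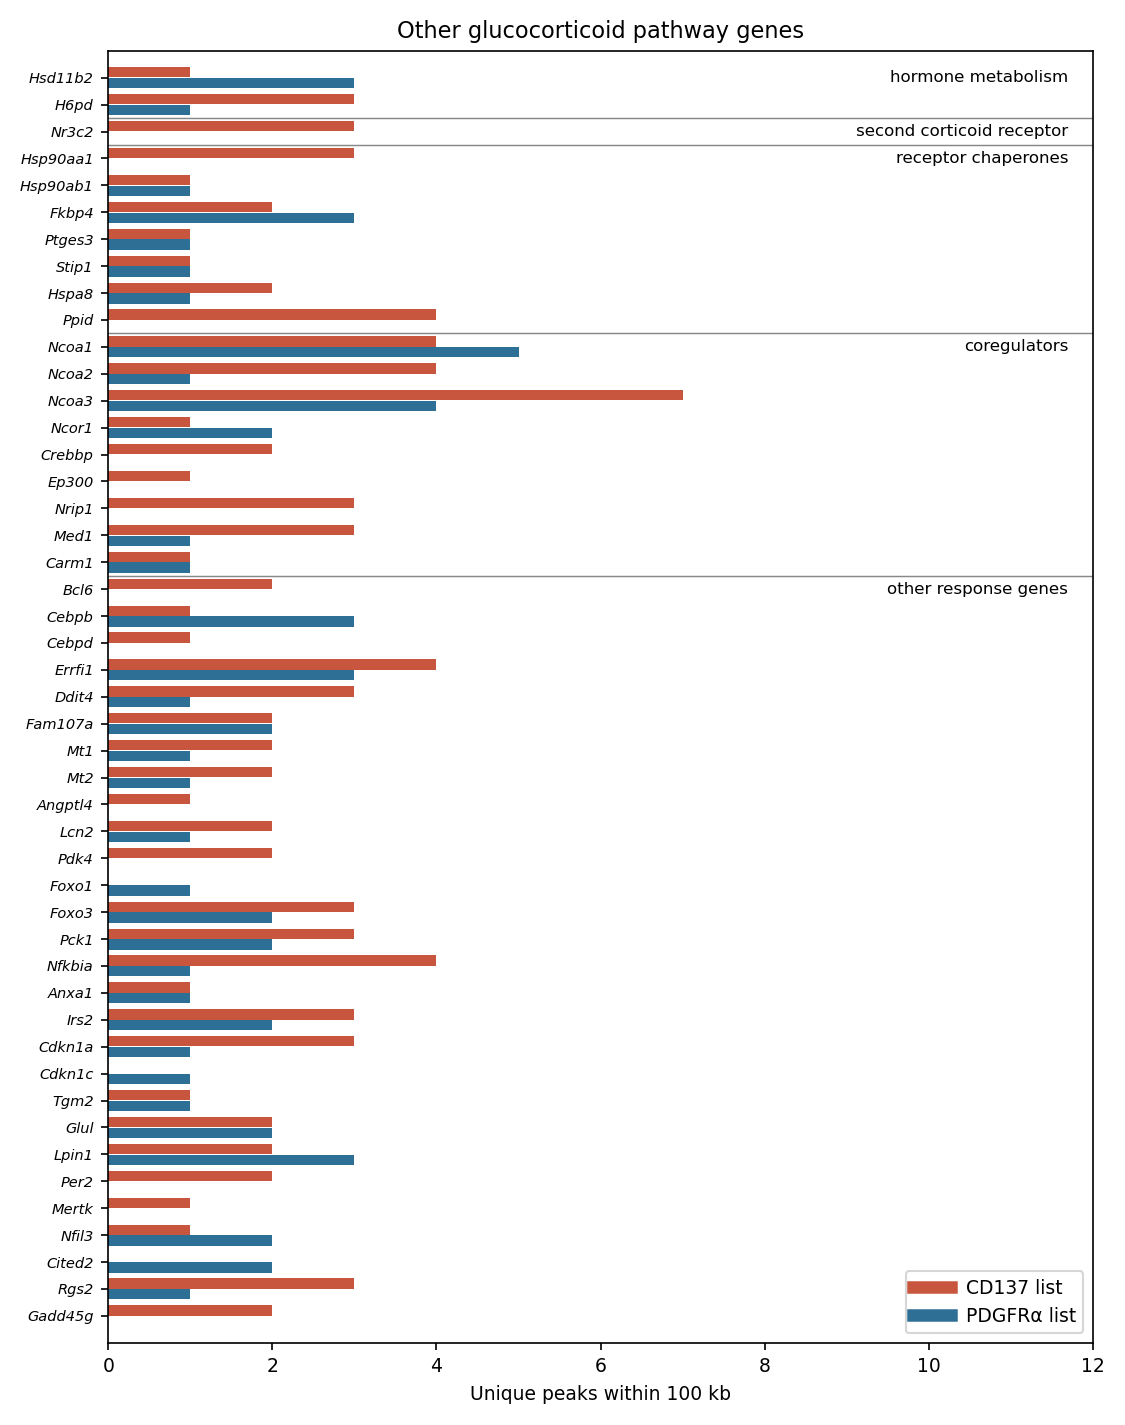
Number of unique peaks within 100 kb of the 47 other pathway genes, grouped by role, with the CD137 bar above the PDGFRα bar for each gene. Ncoa3 has the most CD137 peaks, 7, and Ncoa1 the most PDGFRα peaks, 5.

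The windows of the member starts were also searched on both strands for 4 other motifs. CACGTG, the E-box bound by clock factors and others, was found in 4 of 17 member windows (23.5%, against 7.15% of all windows), at Sgk1 start 5, Fkbp5, Per1 start 1 and Dusp1. At Sgk1 start 5 it overlaps a TGTTCT hexamer. TGACGT, the core of the cAMP response element, was found in 3 (17.6%, against 7.51%), at Per1 start 2, Klf9 and Dusp1. CATTCC, the TEAD motif, was found in 2 (11.8%, against 14.7%), at Sgk1 start 5 and Pik3r1 start 2. TGANTCA, the AP-1 motif, was found in 1 (5.88%, against 7.81%), at Klf9. Apart from Sgk1 start 5, the windows with these 4 motifs lay outside unique peaks.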

How the data were processed

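The deposited peak lists of the 2 ATAC-seq libraries give positions of peaks that the authors call unique, with no count, score or replicate. Per the submitters' processing notes, the tool CASAVA 1.8 and build mm10 belong to the processing, with no role stated. The aligner, the peak caller, its threshold, what makes a peak unique and whether starts count from 0 were not given in the sources used here. Width is end minus start. Gene spans, starts, strands and promoter windows came from RefSeq tables of GRCm38.p6. The starts and strands used did not include Nr3c1 and Zbtb16. A peak was given to a gene when its centre lay within 100 kb of the span, as the background was for all 21887 protein-coding genes. Shares carry exact 95% binomial intervals for counting error. A single library per group allowed no test. The member genes, the lists, the 2 kb width, the 500 bp gap and the motifs were chosen with earlier results of these data known. Of the 47 pathway genes, those with 3 or more peaks, or 2 or more from 1 list only, were to be named. A further gene of the pathway list, left out of all counts, is not reported here. The counting and motif search were tested on simulated data and placed all 200 planted peaks inside or outside the window correctly and found all 200 planted palindromes. Computations ran in Python 3.11.15 with pandas 2.3.3, numpy 2.4.6 and scipy 1.17.1.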

Additional observations from a re-analysis of the deposited data

How the results depend on the processing

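The CD137 share of 57.1% was 70.6% within 5 kb (12 CD137 and 5 PDGFRα peaks), 58.3% within 50 kb and 55.0% within 200 kb. With lists of equal length (the 8002 widest CD137 peaks against all PDGFRα peaks) the order turned to 18 CD137 and 21 PDGFRα peaks, a share of 46.2%, where all protein-coding genes had 48.4%. The share was 52.5 to 61.4% when each gene was left out in turn. All of these values lay inside the main interval of 42.2 to 71.2%. That interval is wide and these sets share peaks with the main set, so this is no independent check. Within 5 kb, 6 of the 10 genes had a peak, 6 a CD137 peak and 5 a PDGFRα peak. The median CD137 width was 1646 bp among intronic and 1097 bp among intergenic peaks alone, against 1238 and 1146 bp for PDGFRα. The median distance to the nearest start was 40.5 kb for CD137 and 35.9 kb for PDGFRα. Of 17 member windows, 4 held the hexamer, 1 the exact palindrome and 1 the palindrome with 1 mismatch. No paired analysis was possible because each group has 1 library. Depth is unknown and was not equalised.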
